A study of Mus musculus with 7 samples.

Results

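The genes described here are 10 transcription elongation and histone chaperone genes: *Supt16* and *Ssrp1*, which encode the FACT complex, *Supt6*, *Supt5* and *Supt4a*, which encode SPT6 and the DSIF pair, and *Paf1*, *Ctr9*, *Leo1*, *Cdc73* and *Rtf1* of the PAF1 complex. They were chosen by name as the main subunits of these factors, 10 of the 25033 genes listed in the counts, and not by their values. All 10 passed the filter on low counts, which kept 11265 genes.

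RNA was measured in lineage depleted (lin-) bone marrow, the progenitor-rich cells that remain after cells with mature surface markers are removed, from 3 *HRP-2* wild type mice (Hrp2+/+) and 4 *HRP-2* knockout mice (Hrp2-/-). The marrow came from femur and tibia of mice aged 6 to 8 weeks and its red cells had been lysed. Knockout mice carried the tm1b allele of *Hdgfrp2*, now *Hdgfl2*, on C57BL/6N in every tissue, and because some knockout pups were lost before weaning the animals studied were survivors. Libraries were read from the 3′ end, 1 fragment per transcript, so that CPM, the reads of a gene scaled to a common library total, are read levels that need no division by gene length.

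In chromatin, RNA polymerase II meets nucleosomes that have to be opened ahead of it and closed behind it. FACT takes hold of H2A-H2B dimers and nucleosomes and SPT6 chaperones H3-H4, DSIF clamps the polymerase and turns from a pausing factor into an elongation factor, and the PAF1 complex travels with the polymerase and is needed for H2B ubiquitination. HRP-2 binds methylated H3 tails through its PWWP domain, as does its paralog LEDGF/p75, and both have been described as helping polymerase through nucleosomes in differentiated cells where FACT is scarce. The comparison here is of the RNA of these factors between lin- cells with and without *HRP-2*.

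Promoter windows of 300 bases, from 250 before to 50 after a RefSeq start on GRCm38.p6, were at hand for 9 of the 10 genes, all but *Ctr9*, with 2 windows for *Ssrp1*. Shown are *Supt16*, *Ssrp1* at its downstream start and *Supt4a*, since the FACT pair had the widest gap in read level within a complex and *Supt4a* the widest spread between mice. Capitals mark the GC box GGGCGG and the ETS motif CCGGAAGT on either strand. *Supt16* lies on the minus strand, *Ssrp1* and *Supt4a* on the plus strand, and each sequence is written 5′ to 3′ along its gene.
Supt16, chr14:52197190-52197489: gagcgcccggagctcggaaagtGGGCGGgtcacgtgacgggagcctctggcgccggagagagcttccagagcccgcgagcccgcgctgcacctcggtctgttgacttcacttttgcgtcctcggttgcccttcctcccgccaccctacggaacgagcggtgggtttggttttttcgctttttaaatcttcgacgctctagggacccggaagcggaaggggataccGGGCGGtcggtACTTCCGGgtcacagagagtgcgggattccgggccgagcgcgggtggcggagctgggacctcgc
Ssrp1, chr2:85037201-85037500: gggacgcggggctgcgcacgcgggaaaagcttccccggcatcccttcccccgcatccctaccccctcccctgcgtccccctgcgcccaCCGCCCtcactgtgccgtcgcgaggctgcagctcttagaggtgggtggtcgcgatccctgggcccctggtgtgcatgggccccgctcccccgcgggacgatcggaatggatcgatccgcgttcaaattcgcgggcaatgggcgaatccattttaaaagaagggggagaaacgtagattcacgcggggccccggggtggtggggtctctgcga
Supt4a, chr11:87737301-87737600: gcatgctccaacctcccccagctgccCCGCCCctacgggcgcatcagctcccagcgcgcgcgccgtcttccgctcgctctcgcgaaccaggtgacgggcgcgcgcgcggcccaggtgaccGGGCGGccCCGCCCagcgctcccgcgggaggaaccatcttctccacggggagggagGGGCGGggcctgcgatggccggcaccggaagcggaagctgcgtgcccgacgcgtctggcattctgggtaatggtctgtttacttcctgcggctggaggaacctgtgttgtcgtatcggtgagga

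The GC box stood in the windows of 8 of these 9 genes, *Supt6* being the exception, against 35.7% of all 32841 windows. The *Supt4a* window held it 4 times and *Supt16* 2 times, while the other *Ssrp1* window, at chr2:85036870-85037169, held none. The ETS motif was found for *Supt16* alone, against 3.89% of windows. The remaining motifs searched on both strands were the TATA box TATAAA in no member (13.6% of windows), CCAAT in *Paf1* (37.4%), CACGTG in *Supt16* (7.15%), AAGATGGC in *Supt5* (2.75%) and the NRF1 motif in *Rtf1* (0.971%). The members' windows were rich in CpG, with a median observed over expected ratio of 0.956 (range 0.648 to 1.14) against 0.384 over all windows, and a median GC content of 63.5% against 52.7%. These matches describe letters only and say nothing of binding.

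Between 3525665 and 5605158 reads fell on genes in each mouse. The share of these on the ribosomal RNA gene *Rn45s* differed, from 4.94% in knockout replicate 1 to 20.6% in wild type replicate 2. It was 18.6% in knockout replicate 4, and its part in the values below was not tested mouse by mouse. The targeted gene *Hdgfl2* averaged 46.1 ± 3.42 CPM in the 3 wild type mice and 1.29 ± 0.938 CPM in the 4 knockout mice (± SD), a log2 fold change of -5.09 ± 0.34 (SE, edgeR quasi-likelihood test, adjusted p = 1.3758e-07). Its paralog *Psip1*, which encodes LEDGF/p75, was at 90.8 ± 7.82 and 94.6 ± 12.2 CPM. The progenitor markers listed for lin- cells summed to between 8084 and 11382 CPM. Of this *Mpo* alone gave 4746 to 6810 CPM, while *Kit* was at 85.1 to 122 CPM and *Cd34* at 185 to 284 CPM. The adult globin genes, 4 of 10 erythroid markers, were listed at 0 in all 7 mice. For some lists of markers of other cells the fitted values lay mostly on one side. All 10 late neutrophil markers had a higher fitted value in knockout mice (median log2 fold change 0.72, sums of 7934 to 11057 CPM in wild type and 9029 to 24913 CPM in knockout). A lower one was fitted for 7 of 8 macrophage markers (median -0.58, sums of 310.0 to 375.5 and 229.9 to 272.2 CPM). The same held for 7 of 7 eosinophil, basophil and mast cell markers (median -0.35, sums of 4159 to 4571 and 2834 to 3862 CPM). Other lists were split, with 2 erythroid markers higher and 4 lower, 4 and 5 for B lineage, 4 and 3 for T and NK and 4 and 2 for megakaryocyte markers. The late neutrophil sums of knockout replicates 1, 3 and 4, at 15772, 24913 and 11667 CPM, stood above every wild type mouse, while that of replicate 2, at 9029 CPM, lay among them. At an unadjusted edgeR p under 0.05, 5 of the 8 macrophage markers and 4 of the 7 eosinophil, basophil and mast cell markers were lower in knockout mice (2.07% of all genes), and 6 and 4 of them were lower with no overlap (2.79% of all genes). Of the 10 late neutrophil markers 0 reached that p and 0 were without overlap. None of these markers was called by edgeR at an adjusted p under 0.25 and 1, *C1qc*, was called by DESeq2, and their part in the values below was not tested. The marker lists were chosen with earlier results of these data known. Their counts beside the shares of all genes are therefore a description and no test.

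None of the 10 genes was called between genotypes by edgeR's quasi-likelihood test at an adjusted p under 0.25 or under 0.05, and none by DESeq2. The background was as low, with 0.0178% of all genes called by edgeR (2 of 11265 at either threshold) and 0.11% by DESeq2, 18 of the 16365 genes to which it gave an adjusted p. The edgeR adjusted p was 0.999 for each of the 10 genes. At an unadjusted edgeR p under 0.05, 1 of the 10 was higher in knockout mice (*Ctr9*) and none was lower, where 3.63% of all genes fell, 1.56% higher and 2.07% lower. In no member did the 3 wild type and the 4 knockout CPM values stand fully apart, as they did for 5.16% of all genes (2.37% higher and 2.79% lower in knockout mice). In bulk RNA, fewer cells of a type and less RNA per cell cannot be told apart, which holds for each value here. The edgeR p-values set each difference against a fitted spread between the mice sampled, which is not the observed spread of that gene alone. For *Ssrp1* the coefficient of variation of CPM over all mice was 5.47%, while the fitted biological coefficient of variation was 13.4%. For *Supt4a* the order was reversed, at 43.2% and 31.9%.

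The fitted changes were small, 7 higher and 3 lower in knockout mice, with a median log2 fold change of 0.07 beside -0.0014 for all genes tested. They ran from -0.22 for *Leo1* to 0.48 for *Supt4a*, and all lay between the 5th and 95th percentiles of all genes (-0.53 and 0.48). The 95% interval of the change stayed within 1.5-fold either way for 6 genes (*Supt16*, *Ssrp1*, *Supt5*, *Paf1*, *Cdc73* and *Rtf1*), as for 41.8% of all genes tested. It stayed within 2-fold for every member except *Supt4a*, 9 of 10, as for 74.5% of all genes tested. The members were more highly expressed than most genes, at a median level percentile of 67.2, and their median standard error was 0.17 against 0.23 for all genes.

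**Figure D1:**
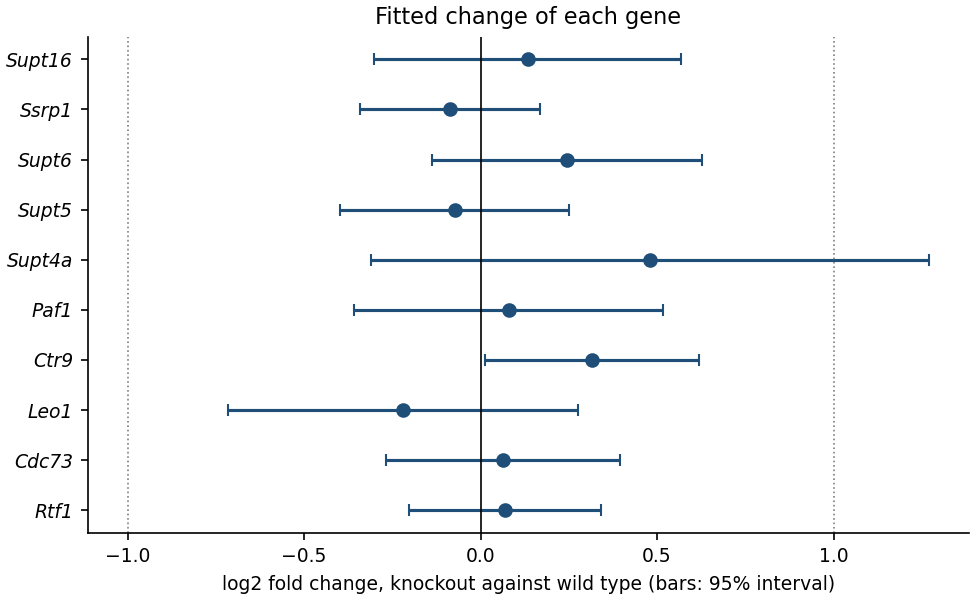
Log2 fold change, knockout against wild type, of each of the 10 genes on the x axis (edgeR fit; bars, 95% interval; dotted lines, 2-fold either way). The interval of *Ctr9* alone leaves out 0, running from 0.01 to 0.62, and the interval of *Supt4a* alone passes a 2-fold change.

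Neither of the 2 FACT genes was called, and their intervals stayed within 1.5-fold either way. *Supt16*, the larger subunit, which binds histone dimers, was at 43.4, 45.6 and 42.8 CPM in wild type replicates 1 to 3 and at 30.7, 47.0, 54.2 and 61.3 CPM in knockout replicates 1 to 4. The wild type values were thus close together while the knockout values spread on both sides of them, from below the lowest to above the highest. Means were 44.0 ± 1.499 CPM (SD, n = 3) and 48.3 ± 13.1 CPM (SD, n = 4), and the fit gave a log2 fold change of 0.13 ± 0.21 (SE, edgeR unadjusted p = 0.528, 95% interval -0.30 to 0.57), which was 0.00016 without knockout replicate 4 and -0.036 with the replicate number as a block. *Ssrp1*, whose HMG box protein completes the complex, was at 446, 432 and 441 CPM in wild type and at 419.6, 380.1, 444 and 414 CPM in knockout mice. Here 3 of the 4 knockout mice lay below every wild type mouse and knockout replicate 3 lay among them. The means of 439.5 ± 6.96 CPM (SD, n = 3) and 414 ± 26.2 CPM (SD, n = 4) gave a log2 fold change of -0.09 ± 0.12 (SE, edgeR unadjusted p = 0.491), a knockout level 0.943 times that of wild type with a 95% interval of 0.790 to 1.12.

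A limit of counting applies to *Supt16* more than to the rest. The gene lies at chr14:52160414-52197416 on the minus strand (GRCm38, GENCODE M21), and all of the last 500 exonic bases of its 3′ end, where these libraries read, overlap exons of *Rpgrip1* on the opposite strand. The library kit keeps strand, but whether strand was used in counting is not stated in the sources used here, so it is unknown whether reads of the 2 genes were separated in that stretch. *Rpgrip1* was listed with 48, 45 and 29 reads in wild type and 81, 37, 44 and 58 reads in knockout mice, where *Supt16* had 198, 163 and 161 and then 158, 226, 290 and 246. By CPM, knockout replicate 1 had the lowest *Supt16* level (30.7) and the highest *Rpgrip1* level (15.7). Knockout replicate 4, with the highest *Supt16* level (61.3), had the next highest *Rpgrip1* level (14.5). *Supt5* shares 373 of its last 500 exonic bases with the antisense gene *Gm44709*, which the counts do not list, and no other member has such an overlap in that stretch.

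*Supt6*, the H3-H4 chaperone that rides on the polymerase, was at 57.3, 41.4 and 40.1 CPM in wild type and at 63.9, 48.2, 49.7 and 58.1 CPM in knockout mice. Wild type replicate 1 lay among the knockout values and the other wild type mice below all of them. The means of 46.3 ± 9.54 CPM (SD, n = 3) and 55.0 ± 7.38 CPM (SD, n = 4) gave a log2 fold change of 0.24 ± 0.18 (SE, edgeR unadjusted p = 0.196, 95% interval -0.14 to 0.63).

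Of the DSIF pair, *Supt5*, the large subunit that carries the repeats phosphorylated by P-TEFb, was at 75.7, 100.8 and 87.1 CPM in wild type and at 87.6, 86.9, 69.1 and 90.2 CPM in knockout mice. Knockout replicate 3 stood below the other 3 knockout mice, which lay between 86.9 and 90.2 CPM and inside the wild type range. The log2 fold change was -0.07 ± 0.15 (SE, edgeR unadjusted p = 0.639), and it became 0.007 without knockout replicate 3 and 0.04 without wild type replicate 2. *Supt4a*, the small zinc finger partner, was the lowest and most variable of the 10, with 85, 21 and 54 reads in wild type and 79, 131, 56 and 81 reads in knockout mice. As read levels these were 18.6, 5.88 and 14.3 CPM and then 15.4, 27.2, 10.5 and 20.2 CPM, so that the genotypes overlapped between 10.5 and 18.6 CPM. Its log2 fold change of 0.48 ± 0.37 (SE, edgeR unadjusted p = 0.216) had a 95% interval of -0.31 to 1.27, and was 0.14 without wild type replicate 2, the mouse with 21 reads.

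*Supt4a* has a processed pseudogene, *Supt4b*, with between 0 and 4 reads per mouse, and how reads shared by near-identical copies were counted is not stated. It also has as a neighbour the other gene called in the whole comparison besides *Hdgfl2*: *Tspoap1* starts 16917 bases beyond the end of *Supt4a* on chromosome 11, with no coding gene lying wholly between. *Tspoap1* averaged 100.7 ± 18.5 CPM in the 3 wild type mice and 228 ± 36.8 CPM in the 4 knockout mice (± SD), a log2 fold change of 1.17 ± 0.16 (SE, edgeR adjusted p = 0.00491), a call that was lost with the replicate number as a block.

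In the PAF1 complex, *Ctr9*, the scaffold that holds its other subunits, had the smallest p of the 10 genes. It was at 108, 94.4 and 84.5 CPM in wild type and at 107, 112, 127 and 131 CPM in knockout mice. All 4 knockout mice lay above the wild type mean, but wild type replicate 1 lay above knockout replicate 1. The means of 95.7 ± 12.001 CPM (SD, n = 3) and 119 ± 11.5 CPM (SD, n = 4) gave a log2 fold change of 0.32 ± 0.14 (SE, edgeR unadjusted p = 0.0429, adjusted p = 0.999), a knockout level 1.24 times that of wild type with an interval of 1.01 to 1.54. By its unadjusted p it ranked 347th of the 11265 genes, and it was not called.

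*Paf1*, which pairs with LEO1, was at 61.0, 46.8 and 37.7 CPM in wild type and at 42.9, 52.0, 41.9 and 69.3 CPM in knockout mice. Wild type replicate 3 lay below every knockout mouse and knockout replicate 4 above every wild type mouse, with the rest intermixed, and the log2 fold change of 0.08 ± 0.21 (SE, edgeR unadjusted p = 0.706) turned to -0.07 without wild type replicate 3 and to -0.09 without knockout replicate 4. *Leo1* was at 30.9, 24.4 and 18.1 CPM in wild type and at 24.1, 17.5, 18.9 and 23.9 CPM in knockout mice. It had the lowest fitted change of the 10, a log2 fold change of -0.22 ± 0.24 (SE, edgeR unadjusted p = 0.364), and its knockout values lay in the lower part of the wild type range or just under it. The change was -0.0023 without wild type replicate 1 and -0.40 without wild type replicate 3.

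*Cdc73*, which encodes the tumour suppressor parafibromin, was at 46.9, 52.4 and 54.7 CPM in wild type and at 56.6, 53.4, 50.6 and 53.8 CPM in knockout mice, a log2 fold change of 0.06 ± 0.16 (SE, edgeR unadjusted p = 0.695). *Rtf1*, which carries the domain that stimulates H2B ubiquitination, was at 161, 177 and 147 CPM in wild type and at 172, 168, 180.1 and 159 CPM in knockout mice, a log2 fold change of 0.07 ± 0.13 (SE, edgeR unadjusted p = 0.602). Both genes held narrow ranges in which the genotypes intermixed, and their 95% intervals were -0.27 to 0.39 and -0.20 to 0.34.

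**Figure D2:**
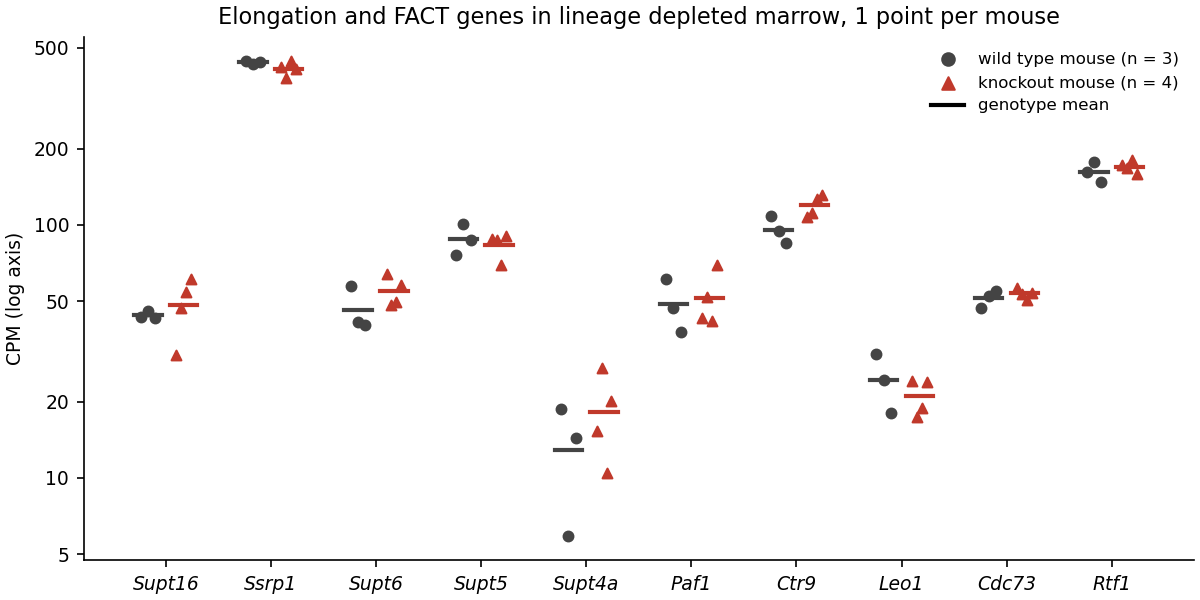
CPM of the 10 genes on a log axis, with 1 point per mouse (circles, 3 wild type mice; triangles, 4 knockout mice; bars, genotype means). The genotypes overlap for every gene, *Ssrp1* lies between 380.1 and 446 CPM in all 7 mice, and *Supt4a* runs from 5.88 to 27.2 CPM.

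The order of read levels over all 7 mice was *Ssrp1* (mean 425 CPM), *Rtf1* (166 CPM), *Ctr9* (109 CPM), *Supt5* (85.4 CPM), *Cdc73* (52.6 CPM), *Supt6* (51.2 CPM), *Paf1* (50.2 CPM), *Supt16* (46.4 CPM), *Leo1* (22.5 CPM) and *Supt4a* (16.01 CPM). *Ssrp1* stood above *Rtf1*, *Rtf1* above *Ctr9* and *Supt5* above *Cdc73* with no overlap of their ranges. *Cdc73*, *Supt6*, *Paf1* and *Supt16* did not separate, since *Cdc73* exceeded *Supt6* in 4 of 7 mice, *Supt6* exceeded *Paf1* in 3 and *Paf1* exceeded *Supt16* in 5. *Supt16* was above *Leo1* in each of the 7 mice and *Leo1* above *Supt4a* in 6, although their ranges overlapped. Subunits of a complex were thus far from equal in reads, with *Ssrp1* at 9.16 times *Supt16*, *Supt5* at 5.33 times *Supt4a* and *Rtf1* at 7.39 times *Leo1*. Between 1.99% and 2.4% of reads were tallied as ambiguous in each mouse, and whether reads of the stretch that *Supt16* shares with *Rpgrip1* are among them was not tested, so that the *Supt16* level, its place in this order and its ratio to *Ssrp1* carry that uncertainty.

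Summed over their subunits the complexes kept close levels. FACT came to 489, 478 and 484 CPM in wild type and 450.3, 427, 498 and 475 CPM in knockout mice, and *Ssrp1* made up most of each sum. DSIF came to 94.3, 107 and 101 CPM and to 103, 114, 79.6 and 110.4 CPM. The PAF1 complex came to 408, 395 and 342 CPM and to 403, 402, 418 and 438 CPM. In each complex the ranges of the genotypes overlapped.

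Ratios within a complex do not depend on library size and were compared over the 7 mice. *Ssrp1* to *Supt16* was 10.3, 9.47 and 10.3 in wild type and 13.7, 8.09, 8.19 and 6.75 in knockout mice, with knockout replicate 1 above and the others below all wild type mice. The difference of mean log2 ratios, knockout minus wild type, was -0.18 (3.32 ± 0.069 and 3.14 ± 0.44, SD, n = 3 and 4; two-sided exact permutation test, p = 0.514), and ran from -0.39 without knockout replicate 1 to -0.048 without knockout replicate 4. *Supt4a* to *Supt5* was 0.246, 0.0583 and 0.165 in wild type and 0.175, 0.313, 0.151 and 0.224 in knockout mice, a log2 difference of 0.64 (exact permutation p = 0.400). It ran from 0.044 without wild type replicate 2 to 1.08 without wild type replicate 1. *Ctr9* to *Paf1* was 1.78, 2.02 and 2.24 in wild type and 2.50, 2.15, 3.03 and 1.90 in knockout mice, a log2 difference of 0.23 (exact permutation p = 0.286) that ran from 0.11 without knockout replicate 3 to 0.34 without knockout replicate 4. None of the 3 ratios separated the genotypes, the adjusted p was 0.514 for each, and the smallest p that the 35 splits of 7 mice allow was 0.0286.

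**Figure D3:**
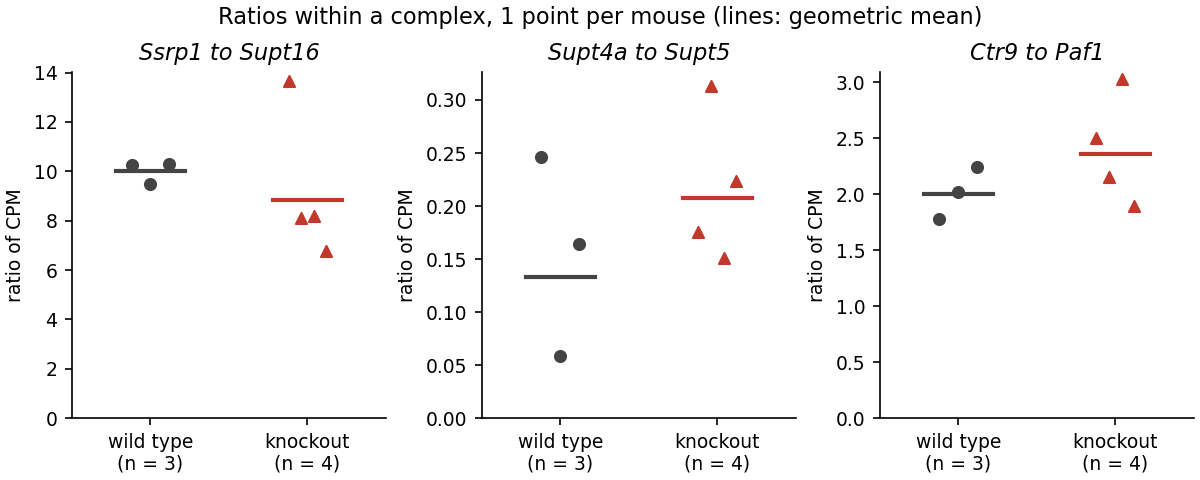
Ratio of CPM of *Ssrp1* to *Supt16*, *Supt4a* to *Supt5* and *Ctr9* to *Paf1* on linear axes from 0, with 1 point per mouse (circles, 3 wild type; triangles, 4 knockout; lines, geometric means). The 3 wild type ratios of the FACT pair sit between 9.47 and 10.3 while the knockout ratios run from 6.75 to 13.7.

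Variation between mice differed among the members. The coefficient of variation of CPM over the 7 mice was 5.47% for *Ssrp1*, 5.91% for *Cdc73* and 6.85% for *Rtf1*, and 43.2% for *Supt4a*, with the other 6 genes between 11.998% and 22.6%. Counting error alone gave 2.30% for *Ssrp1*, 6.53% for *Cdc73*, 3.66% for *Rtf1* and 11.8% for *Supt4a*. The fitted biological coefficient of variation of *Ssrp1*, 13.4%, lay at percentile 0.413 of all genes tested and that of *Supt4a*, 31.9%, at percentile 80.2. By mouse, wild type replicate 3 had the lowest value of 4 members and knockout replicate 4 the highest of 3.

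**Figure D4:**
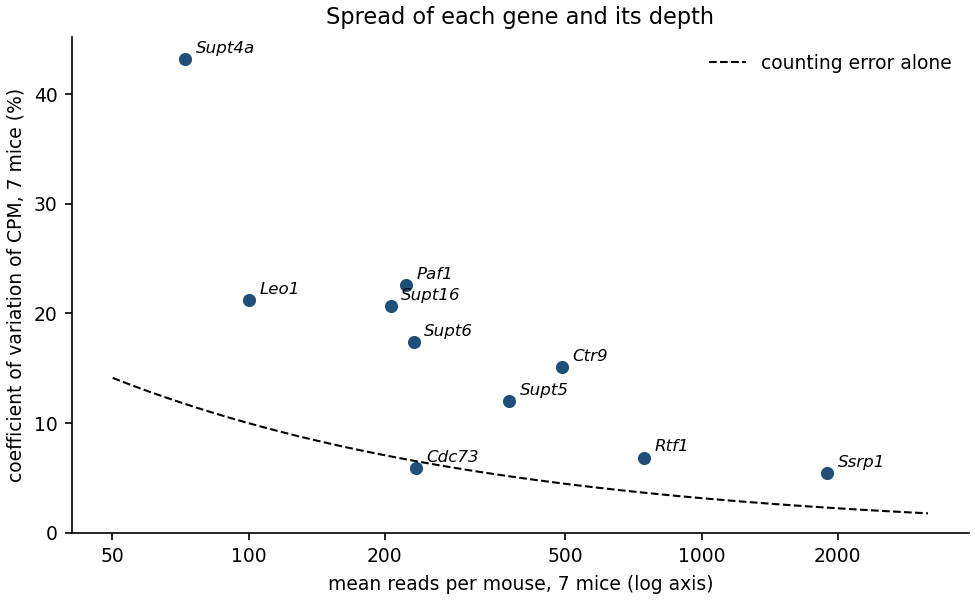
Coefficient of variation of CPM over the 7 mice (y axis, percent) against mean reads per mouse (x axis, log) for the 10 genes, with the dashed line showing counting error alone. *Cdc73*, at 5.91%, is the only one of the 10 under the line, and *Supt4a*, at 43.2%, is the highest.

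The genes whose centred log2 CPM lay nearest to that of *Supt16* across the 7 mice, among 6664 genes with a mean of at least 20 CPM, were *Utp3*, *Tgfb1* and *Aptx*, at a root mean square difference of 0.10, 0.11 and 0.11. For *Ssrp1* they were *Rab3gap1*, *Qk* and *Wdfy4*, at 0.043, 0.047 and 0.052. The FACT genes were not among each other's 3 nearest.

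Other genes of the same machinery likewise stayed uncalled. Of 33 elongation partners, which hold NELF, P-TEFb, the kinases CDK12 and CDK13, Elongin and the H2B ubiquitination enzymes, none passed an edgeR adjusted p of 0.25 in either direction and none an unadjusted p under 0.05. Fitted values were higher for 16 and lower for 17, with a median log2 fold change of -0.0053 and a range of -0.22 to 0.36. The 3 with the smallest p were *Hexim1*, the inhibitor of P-TEFb (75.5 ± 14.1 and 94.2 ± 10.9 CPM in wild type and knockout mice), *Spty2d1*, a histone chaperone (60.0 ± 10.5 and 72.2 ± 4.11 CPM), and *Ccnt2*, a cyclin of P-TEFb (33.6 ± 12.1 and 43.4 ± 1.69 CPM; SD, n = 3 and 4 throughout). Only *Ccnt2* of the 33 had CPM that did not overlap, higher in knockout mice as in 2.37% of all genes. Read levels of the list ran from *Xrn2*, the exonuclease of termination (185 and 203 CPM), down to *Rprd1a* (2.18 and 2.10 CPM).

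All 13 RNA polymerase II subunit genes were tested and none was called or reached an unadjusted edgeR p under 0.05, with 9 fitted higher, 4 lower and a median log2 fold change of 0.04. *Polr2a*, which encodes the catalytic subunit, was at 237 ± 2.39 and 258.5 ± 15.1 CPM (SD, n = 3 and 4; log2 fold change 0.13) and was the only one of the 13 whose values did not overlap, against the same 2.37% of all genes that stood higher. *Polr2h* and *Polr2i*, which encode small subunits, had log2 fold changes of 0.20 and -0.26, and *Polr2k* was the lowest at 6.97 and 7.36 CPM. Summed CPM of the 13 genes was 1081 to 1105 in wild type and 1020 to 1187 in knockout mice.

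Of 15 other histone chaperone genes 10 were fitted higher and 5 lower, with a median log2 fold change of 0.11, and again none was called or reached an unadjusted edgeR p under 0.05. *Chaf1a*, of the CAF-1 complex that loads H3-H4 behind the replication fork, was at 70.6 ± 7.84 and 87.5 ± 9.34 CPM (SD, n = 3 and 4; log2 fold change 0.31 ± 0.15, SE, edgeR unadjusted p = 0.0567). *Nasp*, which stores H3-H4, was at 204 ± 9.92 and 242 ± 11.9 CPM (log2 fold change 0.25), and *Set*, an H2A-H2B and linker histone chaperone, at 323 ± 41.7 and 378 ± 23.0 CPM (log2 fold change 0.23). The values of *Chaf1a* and *Nasp* did not overlap between genotypes, 2 of the 15, where 2.37% of all genes stood higher without overlap. Levels ran from *Npm1* (749 and 725.5 CPM) to *Hira* (6.26 and 6.98 CPM), and the sums were 3333 to 3581 CPM in wild type and 3552 to 3820 CPM in knockout mice.

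**Figure D5:**
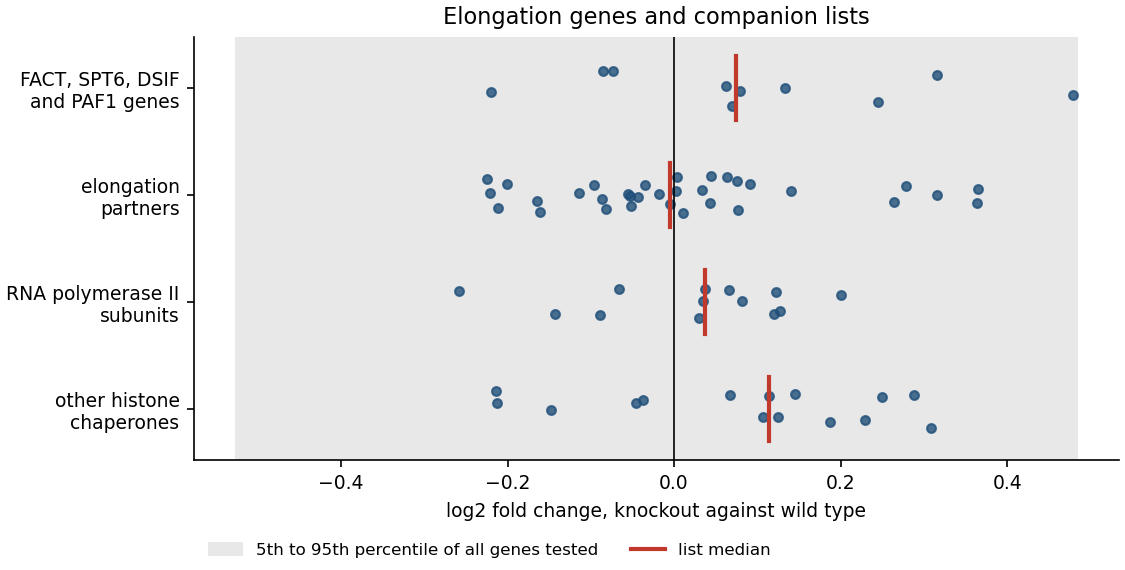
Log2 fold change, knockout against wild type (x axis), of the 10 genes and of 3 lists of related genes, with 1 point per gene, list medians as vertical bars and the 5th to 95th percentile of all genes tested in grey (-0.53 to 0.48). Medians are 0.07 for the 10 genes, -0.0053 for elongation partners, 0.04 for RNA polymerase II subunits and 0.11 for the other histone chaperones, and every point lies inside the grey range.

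Proliferation genes were set beside these lists. Their summed CPM was 3858 to 4161 in wild type and 3934 to 4126 in knockout mice, and of 15 genes 7 were fitted higher and 8 lower. The sum of the 10 elongation and FACT genes was 968 to 1049 CPM in wild type and 992 to 1081 CPM in knockout mice.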

How the data were processed

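RNA of lin- bone marrow from 3 wild type mice and 4 mice without *HRP-2* was converted to 3′ end libraries from 500 ng of total RNA. The authors used STAR both for alignment to GRCm38 and to quantify genes on an Ensembl annotation, and the processing notes also name FastQC and DESeq2. The deposited counts are whole reads per gene symbol, not normalized, and 5 tally rows per library were left out. The kit is strand-specific, but the counted strand and the treatment of shared reads are not given in the sources used here.

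From the counts, edgeR 4.0.16 (R 4.3.3) gave TMM factors, CPM, the filterByExpr filter and the robust quasi-likelihood test with Benjamini-Hochberg adjustment over 11265 genes, called at an adjusted p under 0.25 with 0.05 beside it. Subunit ratios were compared by two-sided exact permutation over 35 splits. The alternatives were DESeq2 1.42.0, other scaling factors and filters, the replicate number as a block, and the omission of *Rn45s* or of each mouse. The edgeR test was tested on simulated data. Promoters came from RefSeq (GRCm38.p6), coordinates and overlaps from GENCODE M21, which may differ from the annotation counted, and figures from matplotlib 3.10.9.

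Genes named were the 10 members, *Hdgfl2*, *Psip1*, called genes of each related list or otherwise its 3 smallest p with the highest and lowest level, and the 3 nearest patterns of the FACT genes. *Tspoap1*, *Rpgrip1*, *Gm44709* and *Supt4b* were named after their values or positions were seen. Members and lists were chosen with earlier results of these data known. Further marker lists had sums, in wild type and knockout mice, of 47.8 to 127 and 40.4 to 137 CPM (erythroid), 78.1 to 231 and 105 to 345 CPM (B lineage), 485.5 to 506 and 404 to 552 CPM (T and NK) and 227 to 368 and 105 to 886 CPM (megakaryocyte). Progenitor markers were fitted higher for 3 and lower for 7 of 10. Replicates are separate mice by label, and no pair of libraries of a genotype was so alike that it had to be counted as 1 sample. The 95% intervals of changes are from the edgeR fit and include the spread between mice, and the floor of 3 reads, for counting error only, corresponds to 0.535 to 0.851 CPM.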

Additional observations from a re-analysis of the deposited data

Results flagged for a closer look

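The *Supt5* level of knockout replicate 3, 69.1 CPM, stood apart from the other 3 knockout mice, with a gap of 0.842 of the range of the 4 values, above the 95% critical value of Dixon's test. It was the only such sample among 15 results examined in the knockout group, where chance gives about 0.75.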

How the results depend on the processing

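None of the 10 genes and none of the 3 related lists had a call under any of the 14 alternatives, in which the smallest adjusted p of a member was 0.949 (edgeR without a filter on low counts), and the median log2 fold change of the 10 genes stayed between 0.01 and 0.11. *Hdgfl2* stayed between -5.62 and -4.86 in 13 alternatives and was not tested when 10 reads were required in every mouse. The genes called over the whole table, 2 with 1 higher and 1 lower in knockout mice, became 18 with DESeq2 (9 higher, 9 lower), 41 without a filter (20 higher, 21 lower) and 1 with 10 reads in every mouse (0 lower). Omission of single mice gave 2 to 7 genes, 1 to 5 higher and 1 to 2 lower, with 7 without wild type replicate 1 and 4 without knockout replicate 1. The cause was not tested.

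The replicate number as a block, in which knockout replicate 4 has no wild type partner and adds nothing to the change, left 1 gene called (0 higher, the call of *Tspoap1* being lost), and turned *Supt16* to -0.036 and *Paf1* to -0.072. Same-numbered mice did not deviate together (correlations -0.023, -0.19 and -0.14). With no mismatched pairs set beside them, these values do not settle whether the numbers pair the mice. With single mice left out, *Supt5* ran from -0.16 to 0.036, *Paf1* from -0.094 to 0.29, *Supt16* from 0.00016 to 0.30 and *Supt4a* from 0.14 to 0.85, and members whose genotypes did not overlap numbered 0 to 2: *Supt6* and *Ctr9* (higher) without wild type replicate 1, *Leo1* (lower) without wild type replicate 3, *Supt16* and *Ctr9* (higher) without knockout replicate 1, and *Ssrp1* (lower) without knockout replicate 3. Of all genes, 9.01% to 13.1% did not overlap under the same omissions, against 5.16% with all mice. *Supt6* ran from 0.15 to 0.44, *Ctr9* from 0.23 to 0.42, *Ssrp1* from -0.12 to -0.046, *Leo1* from -0.40 to -0.0023, *Cdc73* from 0.0086 to 0.11 and *Rtf1* from 0.0067 to 0.14, so that the last 3 came close to 0. The interval of *Supt4a* reached 1.27 on the log2 scale, so that a 2-fold difference could not be told from none in these 7 mice.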
